A study of Arabidopsis thaliana with 12 samples.

Results

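AT1G74730 is a nuclear gene of Arabidopsis thaliana for a thylakoid protein of the DUF1118 family, and its level was followed on the arrays of 6 toc120 mutant and 6 wild-type (WT) samples. The gene was chosen by its measured rise in toc120 over WT, and was read from the one probe that the platform annotation assigns to AT1G74730 and to no other gene. It is 1 of 690 loci with such a 1-gene probe. The array table holds 692 1-gene probes among 3439 probes in all. Both genotypes are labelled with the Columbia 0 accession, total RNA was measured, and per the labels the toc120 plants are defective in bringing proteins through the outer chloroplast envelope. TOC120 is a receptor of that envelope for proteins made in the cytosol. The sources used here do not give tissue, plant age, growth conditions or the toc120 allele. Nor do they say that a genotype's samples are separate plants or cultures, so each p-value below covers sample-to-sample spread that may be purely technical.

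The thylakoids of land plant chloroplasts are folded into stacked discs, the grana, joined by unstacked lamellae. Photosystem II and its light-harvesting antenna sit mainly in the stacks, and the way they are packed there bears on how excess light energy is shed as heat, a process called non-photochemical quenching. AT1G74730 is also known as RIQ2 and its close relative AT5G08050 as RIQ1. Both encode grana proteins, and Arabidopsis plants that lack either one show weaker induction of quenching and altered stacking of the grana. Like nearly all such proteins they are made in the cytosol and imported into the chloroplast.

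The deposited values are probe intensities on a linear scale. They summed to between 2688 and 3686 per toc120 array, against 2641 to 3553 per WT array. Array medians were 0.188 to 0.278 in toc120 and 0.151 to 0.157 in WT, so unscaled toc120 arrays were brighter at their midpoint. The arrays were therefore also compared after quantile normalisation, which gives every array the same distribution of values. Arrays 1 and 2, 3 and 4, and 5 and 6 of a genotype resembled each other more than they did the rest, with Spearman's rho over all probes of 0.952 to 0.975 against 0.910 to 0.946. The 8 green tissue and 8 root marker loci listed for a check of the material had no probe with 1 gene, so the tissue was not checked.

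The 1-gene probe of AT1G74730 was several times brighter in every toc120 sample than in any WT sample. As deposited, its probe stood at 0.971, 1.23, 1.64, 1.68, 1.57 and 1.43 on toc120 arrays 1 to 6. On WT arrays 1 to 6 it stood at 0.133, 0.191, 0.183, 0.216, 0.178 and 0.166. The lowest toc120 array, number 1, was thus far above the highest WT array, number 4, and the genotypes did not overlap. The mean intensity was 1.42 ± 0.274 in toc120 and 0.178 ± 0.0275 in WT (SD, n = 6 each). Because these values chose the gene, they are a description and no test of them is given. Among all probes with 1 gene, 162 of 692 (23.4%) had every toc120 array above every WT array as deposited, and 112 (16.2%) did so after quantile normalisation. In tissue RNA, a change in the cells that make a transcript cannot be told apart from a change in the amount per cell.

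**Figure D1:**
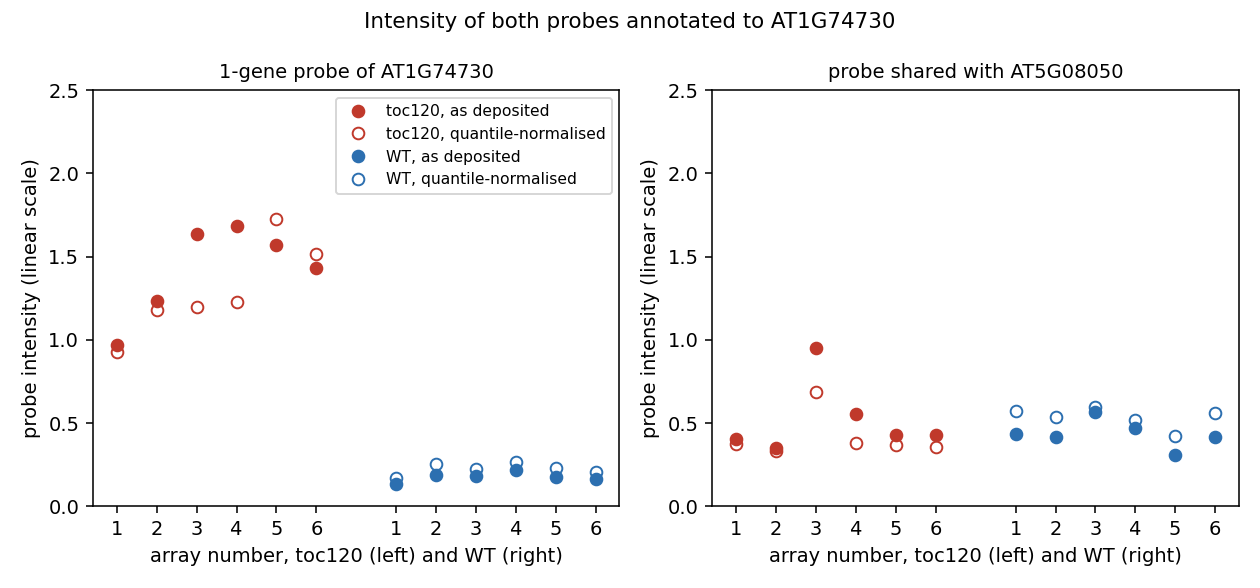
Probe intensity (linear scale) on each toc120 (left) and WT (right) array for the 1-gene probe of AT1G74730 and for the probe annotated to both AT1G74730 and AT5G08050. Filled points are values as deposited and open points quantile-normalised values. The 1-gene probe lies at 0.971 to 1.68 as deposited on toc120 arrays and at 0.133 to 0.216 on WT arrays, while the shared probe overlaps between the genotypes.

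Setting arrays of equal number against each other gave a similar picture throughout. The ratio of toc120 to WT as deposited was lowest for number 2, at 6.46, had a median of 8.22 and was highest for number 3, at 8.96. After quantile normalisation the 6 ratios ran from 4.60, for number 4, to 7.52, for number 5, with a median of 5.38. Over all probes, the median log2 difference between toc120 and WT was 0.23 as deposited and 0 after quantile normalisation.

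After quantile normalisation AT1G74730 averaged 1.30 ± 0.282 in toc120 and 0.226 ± 0.0339 in WT (SD, n = 6 each). With neighbouring arrays averaged first, the SD was 0.292 in toc120 and 0.0183 in WT (n = 3 pair means each). On the scale of log2(intensity + 0.0261), where the small constant keeps values of 0 on the scale, toc120 exceeded WT by 2.38, a 5.19-fold difference. With array medians made equal the difference was 2.26, and with array totals made equal it was 2.77. As deposited it was 2.82. A larger constant of 0.24, the median positive intensity, lowered it to 1.70 after quantile normalisation, or 3.26-fold. All of these settings left toc120 higher. With the constant of 0.0261, the scalings spread the fold between 4.80, with equal medians, and 7.04, as deposited. The 3.26-fold value came from the larger constant under the same scaling as the 5.19-fold value. With no constant added, the ratio of mean intensities was 5.74 after quantile normalisation and 5.22 with equal medians. It was 7.72 with equal totals and 7.999 as deposited.

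The place of the probe among all probes of its own array does not depend on how arrays are scaled. On toc120 arrays 1 to 6 the AT1G74730 probe ranked 458, 353, 349, 341, 246 and 280 from the brightest of 3439. On WT arrays 1 to 6 it ranked 1852, 1452, 1564, 1396, 1548 and 1645. It thus lay among the brighter probes in the mutant, with 90.2% ± 2.12 of probes dimmer, and near the middle in WT, with 54.2% ± 4.68 dimmer (SD, n = 6 each). Brightness also depends on the probe, so these ranks do not order transcripts by abundance. By the rise in mean rank, 1238 places, it stood ninth of the 691 1-gene probes with a known locus and in place 34 of all probes.

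**Figure D2:**
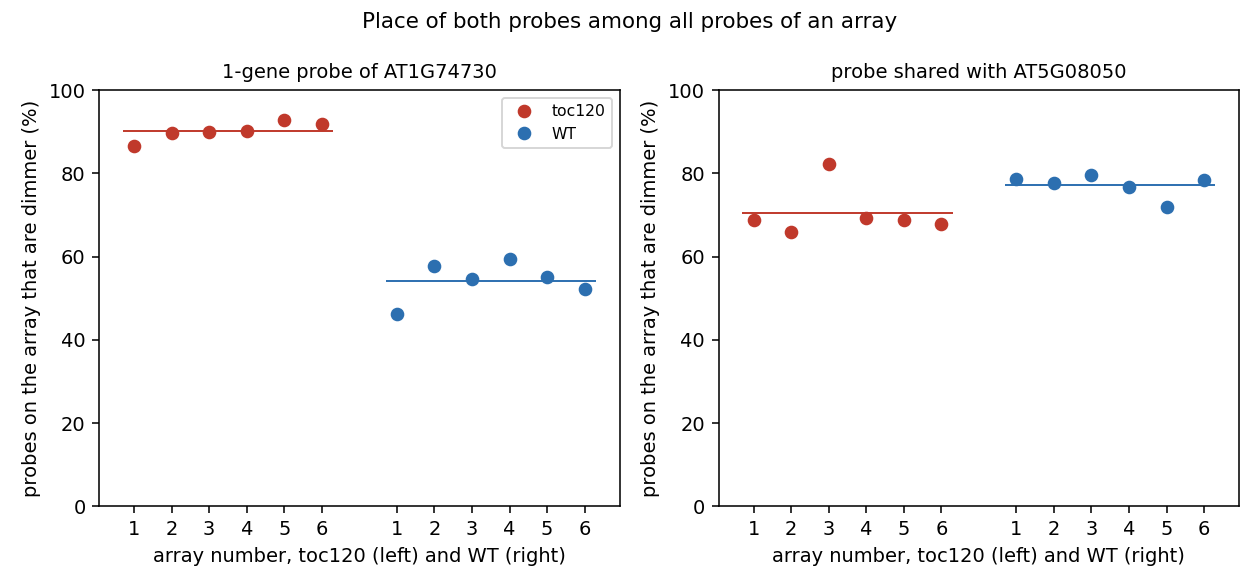
Share of probes on the same array that are dimmer (%) for the 1-gene probe of AT1G74730 and the shared probe, on each toc120 (left) and WT (right) array, with horizontal lines at the genotype means. The 1-gene probe averages 90.2% in toc120 and 54.2% in WT, while the shared probe averages 70.5% in toc120 and 77.2% in WT.

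Log2 differences were ordered from the largest rise in toc120 to the largest fall, so larger falls do not lower a place. By this order AT1G74730 was also number 9 of 691. The places just above it belonged to dimmer genes. AT1G35340, at 2.39, averaged 0.177 ± 0.0614 in toc120 and 0.0169 ± 0.0261 in WT, where 4 of 6 arrays were listed at 0. AT1G07040, at 2.43, averaged 0.234 ± 0.130 in toc120 and 0.0179 ± 0.0183 in WT (SD, n = 6 each). Just below it, AT5G40030 at 2.17 averaged 2.81 ± 0.161 in toc120 and 0.611 ± 0.0931 in WT, and AT2G23890 at 2.15 averaged 0.404 ± 0.0657 in toc120 and 0.0841 ± 0.0679 in WT. A restriction to the 494 1-gene probes above 0 on all 12 arrays was added after the values had been seen. In this set XERICO had a log2 difference of -2.93, larger in size, and AT1G74730 had the largest rise in toc120 after quantile normalisation. Its place among all 691 depended on the settings: it was number 3 with the larger constant and number 11 with the constant halved to 0.0131, number 6 as deposited or with equal totals, and number 9 with equal medians.

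Samples of a genotype agreed about as well for AT1G74730 as for other genes. Its SD within genotypes was 0.26 on the log2 scale, against a median of 0.30 over the 494 probes above 0 on all arrays, and 186 of these had a smaller one. After quantile normalisation array 1 was the lowest in both genotypes, at 0.929 in toc120 and 0.170 in WT. Arrays 5 and 6 were the highest in toc120, at 1.73 and 1.51, whereas in WT array 4 was the highest, at 0.267.

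A second probe gave another readout that the choice of the gene had not used. The annotation assigns it to AT1G74730 together with AT5G08050, so its signal cannot be credited to either gene, and AT5G08050 has no 1-gene probe. As deposited this shared probe stood at 0.406, 0.353, 0.950, 0.557, 0.430 and 0.427 on toc120 arrays 1 to 6. On WT arrays 1 to 6 it stood at 0.436, 0.414, 0.566, 0.471, 0.310 and 0.416. The genotypes overlapped, and toc120 array 3 was well above all the others. The means as deposited were 0.520 ± 0.221 in toc120 and 0.435 ± 0.0835 in WT (SD, n = 6 each). Ratios of equal numbers ran from 0.853 to 1.68, with a median of 1.11.

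The shared probe did not rise in toc120 by the test applied to all probes. After quantile normalisation it averaged 0.418 ± 0.134 in toc120 and 0.534 ± 0.0620 in WT (SD, n = 6 each), and 5 of 6 equal numbers were lower in toc120, number 3 being the exception. The log2 difference was -0.37 (SE 0.16, limma adjusted p = 0.0804 over the 12 arrays and 0.161 with neighbouring arrays averaged). Without toc120 array 3 it was -0.52 and passed the threshold of 0.05, with a limma adjusted p of 0.000464. Its direction depended on the scaling, since it was at 0.19 as deposited (limma adjusted p = 0.545) and at 0.14 with equal totals (0.509). For comparison, 1587 of 3439 probes (46.1%, and 46.4% of the 1-gene probes) passed over the 12 arrays, 735 higher (21.4%) and 852 lower (24.8%) in toc120. With neighbouring arrays averaged, 1084 passed (31.5%).

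Both probes annotated to AT1G74730 therefore gave different answers on the same arrays. The log2 difference of the 1-gene probe exceeded that of the shared probe by 2.75 after quantile normalisation. This gap was 2.63 as deposited, 2.64 with equal medians and 2.63 with equal totals. Dividing an array by a single factor moves both of its probes alike, so these values had to be nearly equal. With the larger constant the gap was 1.96. Within genotypes the probes did not vary together either: over the 12 deviations from the genotype mean, which share arrays and neighbouring pairs, Pearson's r was -0.17. Which probe sequence matches which transcript was not tested, because probe sequences were not used here.

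**Figure D3:**
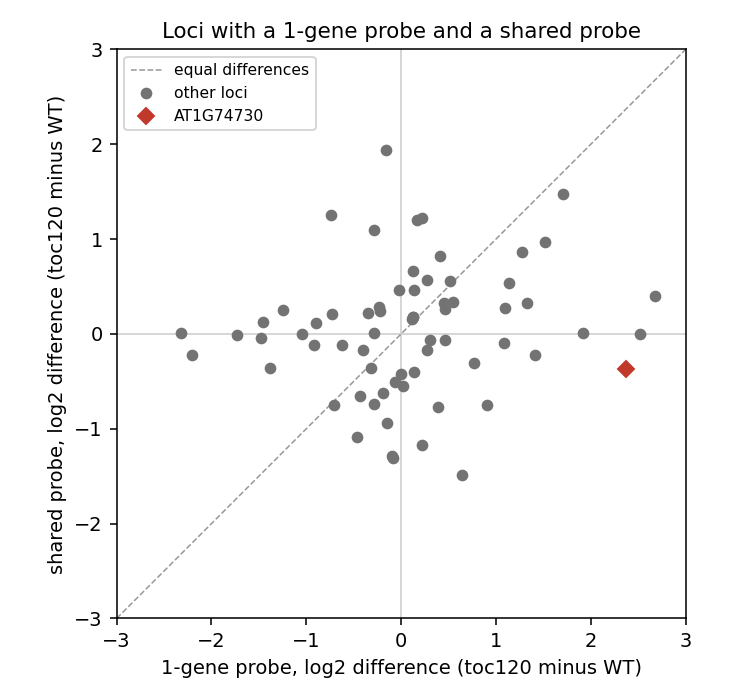
Log2 difference (toc120 minus WT, quantile-normalised) of the 1-gene probe (x axis) and of the shared probe (y axis) for each of 67 loci that have both, with the dashed line marking equal differences. AT1G74730, at 2.38 and -0.37, lies farthest from the line, but it was chosen for its rise on the x axis.

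The annotation puts 67 loci on both a 1-gene probe and a probe shared with other genes, which shows how often such probes differ on this array. The log2 differences of a locus's probes had the same sign at 38 of the 67 loci. A difference of exactly 0 did not count as the same sign. Some loci had identical shared-probe values, so the 67 pairs are not all separate. The median absolute gap was 0.60, and the gap of AT1G74730 was the largest. That of AT2G13690 followed at 2.52, where the shared probe had a difference of 0. AT1G74730 was chosen for the rise of its 1-gene probe, which is part of the gap, so its top place is no test. Both probes passed over the 12 arrays at 8 loci, in the same direction at 5 of them. At 21 loci only the 1-gene probe passed, a count that includes AT1G74730 and is no test of it. At 17 loci only the shared probe passed, and at 21 neither. On the whole array 46.4% of 1-gene probes and 46.1% of all probes passed. What pairs of unrelated probes would give, in calls or in signs, was not worked out. At 10 of the loci, AT1G74730 among them, the shared probe was annotated to 2 genes.

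Other genes of grana structure, quenching, light harvesting and photosystem II were thinly covered. Of 61 loci on 5 lists, 7 had a 1-gene probe, 7 lay only on shared probes and 47 on neither. Over the 12 arrays 1 of the 7 was higher in toc120, 4 were lower and 2 did not pass, beside 23.3% higher and 23.1% lower among all 1-gene probes. Their median log2 difference was -0.38, against 0 for all 1-gene probes. With neighbouring arrays averaged, 0 of the 7 passed, beside 31.1% of 1-gene probes. With neighbours fitted as a random block 3 passed, beside 1288 of all 3439 probes. The counts below treat all 12 arrays as separate samples.

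FZL, a dynamin-like GTPase that shapes thylakoids, was the only one of 11 loci of grana and thylakoid architecture with a 1-gene probe. It was dim, at 0.000794 to 0.0645 in toc120 with a median of 0.0392, against 0.0686 to 0.105 in WT with a median of 0.0876 (n = 6 each). The genotypes did not overlap after quantile normalisation, as for 13.9% of 1-gene probes with toc120 lower throughout. The log2 difference was -1.07 (SE 0.32), with a limma adjusted p of 0.0158 over the 12 arrays and of 0.139 for averaged neighbours, and opposite in sign to that of AT1G74730.

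Of 19 loci of quenching, state transitions and photoprotection, 2 had a 1-gene probe. CHL, the plastid lipocalin, acts in Arabidopsis in a slow form of quenching in the antenna, which AT4G31530, known as ROQH1, relaxes. AT4G31530 was at 50.1 to 56.1 in toc120 with a median of 53.3, against 38.6 to 50.1 in WT with a median of 43.1. Its log2 difference of 0.27 had a limma adjusted p of 0.00844 over the 12 arrays and of 0.112 once neighbours were averaged. It was 0.02 as deposited and -0.03 with equal totals. With equal medians it was -0.58 and passed in the other direction (limma adjusted p = 0.0150), so its direction depended on the scaling. A probe that AT4G31530 shares with other genes was at -0.17 after quantile normalisation and did not pass. The probe of CHL ran from 0 to 0.0242 in toc120 and from 0 to 0.0896 in WT, with 2 toc120 arrays and 1 WT array listed at 0. Its log2 difference of -0.80 did not pass (limma adjusted p = 0.0904), except without WT array 4 (-1.05, limma adjusted p = 0.0129).

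Of 14 antenna loci of photosystem II 1 had a 1-gene probe, and of 12 loci of its nuclear subunits 3 did. These few antenna and photosystem II genes, whose products the grana hold, were lower in toc120 or did not pass. LHB1B2, an antenna protein with near-identical relatives that its probe may also detect, was at 18.1 to 23.3 in toc120 with a median of 22.7, against 22.7 to 28.6 in WT with a median of 27.0. Its log2 difference was -0.25 (limma adjusted p = 0.0228, 0.0634 for averaged neighbours, and 0.0512 without WT array 2). PSBW, a small subunit of photosystem II, was at 19.0 to 38.6 in toc120 with a median of 34.3, against 37.6 to 56.1 in WT with a median of 45.4. Its log2 difference was -0.58 (limma adjusted p = 0.0206, and 0.145 for averaged neighbours). PSBY, another small subunit, had a log2 difference of -0.33 (limma adjusted p = 0.00432, 0.0801 for averaged neighbours and 0.0949 as deposited). With equal array medians these falls were larger, at -1.08 for LHB1B2, -1.46 for PSBW and -0.87 for PSBY. PSB27, an assembly factor of the same complex, had a log2 difference of -0.38 that did not pass over the 12 arrays (limma adjusted p = 0.270). Blocking on the sample number gave it a limma adjusted p of 0.0158, and it was at 0.01 as deposited. None of the 5 loci for insertion of antenna proteins into the thylakoid had a 1-gene probe.

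**Figure D4:**
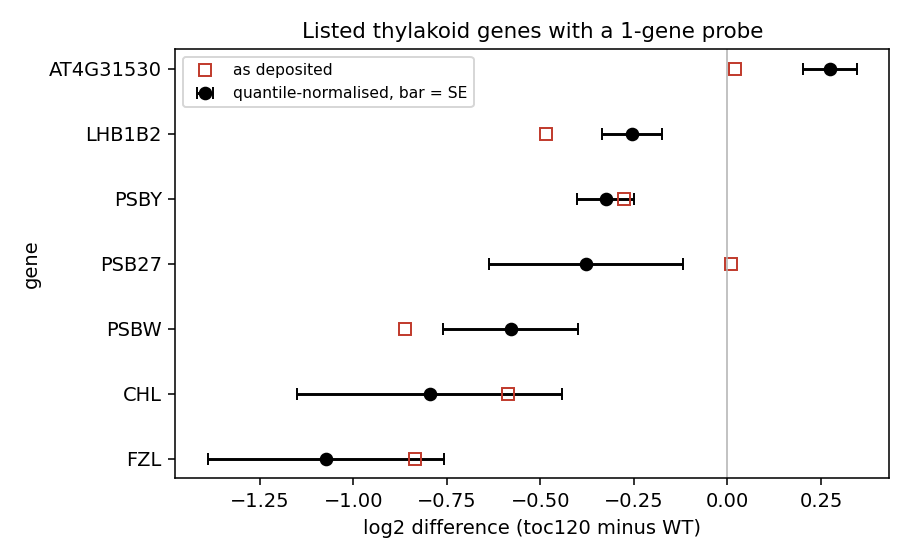
Log2 difference (toc120 minus WT) of the 7 listed thylakoid genes that have a 1-gene probe. Black points are quantile-normalised values with the SE of the fit over 12 arrays, and open squares are the differences as deposited. FZL lies lowest at -1.07 and AT4G31530 highest at 0.27.

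The likeness of other genes to AT1G74730 was measured over the 12 arrays. Among 493 other 1-gene probes above 0 on all arrays, 55 had Pearson's r above 0.9 with it on the log2 scale and 48 had r below -0.9. The arrays share 2 genotypes and neighbouring pairs, so these values mainly restate the contrast that chose the gene. The highest were AT5G03370 at 0.988, AT1G76450, of the PsbP family of thylakoid lumen proteins, at 0.987, AT3G32930 at 0.983, AT5G26850 at 0.982 and AT4G05030 at 0.980. AT1G76450 averaged 8.35 ± 0.737 in toc120 and 2.75 ± 0.130 in WT (SD, n = 6 each), a 3.01-fold difference. AT5G03370 differed 3.95-fold, AT4G05030 3.08-fold, AT3G32930 2.34-fold and AT5G26850 2.24-fold. The lowest r were those of AT3G57630 (-0.984), XERICO, a RING finger protein of abscisic acid metabolism (-0.981), and AT4G39690 (-0.981).

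Taking each genotype's mean away removed that contrast and left other genes on top. They are the extremes of 493 probes, and none was tested. The 12 deviations share neighbouring pairs within a genotype and sample numbers across genotypes. Pearson's r of the deviations was highest for AT1G42960 at 0.894, AT4G16490 at 0.857, SECE1, a subunit of a protein translocase of the chloroplast, at 0.843, AT3G57440 at 0.833 and CRR21 at 0.808. CRR21, a pentatricopeptide repeat protein that acts in editing of a plastid NDH transcript, was also at 0.977 over the 12 arrays. It averaged 0.647 ± 0.134 in toc120 and 0.271 ± 0.0263 in WT (SD, n = 6 each), a 2.23-fold difference. SECE1 was lower in toc120 although its r within genotypes was positive. It averaged 0.216 ± 0.0958 in toc120 and 0.444 ± 0.0936 in WT (limma adjusted p = 0.00644 on all 12 arrays, 0.0896 for averaged neighbours). The lowest r of deviations were those of AT5G53620 (-0.813), AT5G19540 (-0.805) and Cpn60beta3, a plastid chaperonin subunit (-0.792).

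**Figure D5:**
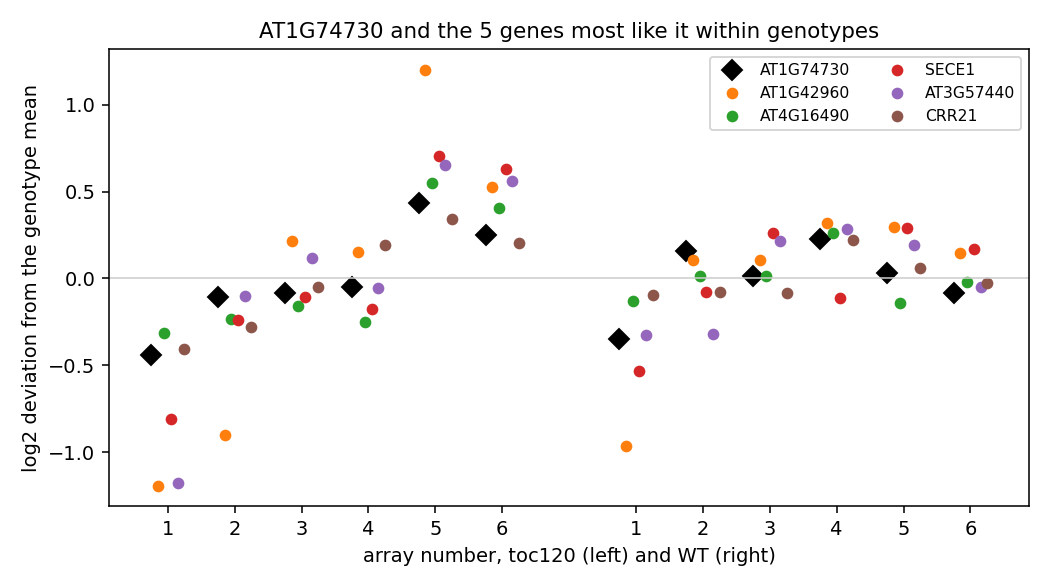
Log2 deviation from the genotype mean (quantile-normalised) of AT1G74730 (black diamonds) and of the 5 genes with the highest r of deviations, on each toc120 (left) and WT (right) array, with points shifted sideways to separate them. AT1G74730 is lowest on array 1 of both genotypes, at -0.44 in toc120 and -0.35 in WT, and highest on toc120 array 5, at 0.43.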

How the data were processed

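The authors deposited probe intensities for 12 arrays of 3439 probes. The sources used here give neither array type nor background correction nor scaling. Arrays have no read depth, and their number sets the precision. AT1G74730 and the gene lists were chosen with earlier results of these data known. Probe names come from the platform annotation in GEO, matched by gene identifier to the TAIR10.1 gene table: 692 had 1 gene (691 with a locus), 870 several and 1877 none. Genes named in the text are AT1G74730, listed loci with a 1-gene probe, the 2 neighbours on each side in the order of differences, and the 5 highest and 3 lowest by each correlation. The gap ranking was added after the values were seen.

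Intensities were quantile-normalised and entered as log2(value + 0.0261), the constant being percentile 5 of the positive values. The test was limma 3.58.1 (R 4.3.3; eBayes after lmFit, two-sided, Benjamini-Hochberg adjustment over all 3439 probes, threshold 0.05) of toc120 against WT. It was also run on simulated data in which far fewer probes changed than passed here. That run therefore does not show its error rate on these arrays. Figures used matplotlib 3.10.9 in Python 3.11.15. Alternatives covered scaling, constant, a filter on dim probes, neighbour averaging, blocks and leaving out each array. Deviations from the genotype mean correlated between same-numbered arrays at r of 0.22 to 0.35, and all 12 arrays correlated best with their own number. Numbers were therefore taken to pair the samples. This pairing is read from the values, since no label states it. The main test had no term for it, and only the replicate blocks and the comparisons of equal numbers used it.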

Additional observations from a re-analysis of the deposited data

Results flagged for a closer look

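Within genotypes, 4 of 58 groups of 6 arrays held an array whose gap to the nearest other exceeded, as a share of the range, Dixon's critical value for 6 samples, and chance alone marks about 1 in 20. The shared probe stood at a quantile-normalised intensity of 0.690 on toc120 array 3, against 0.335 to 0.379 on the other toc120 arrays. AT1G42960 stood at 0.0469 on WT array 1, against 0.127 to 0.152 on the other WT arrays, and AT4G16490 at 0.163 on WT array 4, against 0.117 to 0.133. AT2G23890 stood at 0.214 on WT array 6, against 0.0168 to 0.0790. AT1G74730 itself had no such array in either genotype.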

How the results depend on the processing

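The log2 difference of AT1G74730 was positive under every alternative run. It was 2.38, and moved by more than the spread of equal-number differences to 2.82 as deposited, 2.77 with equal totals and 1.70 with the larger constant; leaving out each array in turn gave 2.30 to 2.46. Its place among 1-gene probes, counted from the largest rise, was 9, 3 with the larger constant and 11 with the halved one. The shared probe, whose alternatives were chosen after seeing the data, was at -0.37 but at 0.19 as deposited and 0.14 with equal totals, and at -0.52 to -0.32 with each array left out. The cause was not tested. Of all probes, 1587 passed, 1084 with neighbours averaged, 1688 with the replicate block (the sample number) and 979 for averaged neighbours with their number as a replicate block. With the intensities as deposited 74.4% of calls were higher in toc120, with equal totals 70.7%, and 46.3% after quantile normalisation. Of the listed genes 5 passed, 3 as deposited, 3 with neighbours as a random block, and 0 with neighbours averaged, with or without the pair block; leaving out each array gave 4 to 6. Apart from PSB27, the replicate block over the 12 arrays changed no call of a listed gene or of the shared probe. AT4G31530 turned to -0.58 with equal medians, where it passed as lower (limma adjusted p = 0.0150), and to -0.0295 with equal totals. PSB27 turned to 0.0102 as deposited. Of the 5 genes most like AT1G74730 within genotypes, 1 was again among the top 5 as deposited and 3 with the larger constant, and by Spearman's rho 1 of the 5 over the 12 arrays was.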
